A study of Mus musculus with 4 samples.

Results

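Transcripts of chemokines and chemokine receptors were counted in place with Xenium, an imaging assay that assigns decoded probe signals to segmented cells, in vagal ganglia, the paired sensory ganglia (nodose and jugular) whose neurons supply the airways and other viscera. The set held 10 genes of the 470 in the count table, taken by name with earlier results of these data known. These were the CXC ligands Cxcl1, Cxcl9, Cxcl10 and Cxcl13, the receptors Cxcr4 and Ackr3, and the CC ligands Ccl6, Ccl7, Ccl8 and Ccl9. The 3 sections, each 5 µm thick, came from ganglia of adult C57BL/6 mice (C57BL/6J in the study's methods), labelled male, that had been given 50 µL of A. alternata extract at 25 µg/mL intranasally on days 0, 3, 6 and 9, and were taken 16 hours after the last dose. A. alternata is a mould used here to induce an allergic asthma model. No PBS-treated ganglion was among the sections, so no value below is an effect of the allergen, and a lung section of the same series was not analysed here. The sources used here do not say if each section was cut from another mouse, so the p-values do not measure how mice vary. They rest on counting error and on a spread between sections, shared across classes and genes, which may be technical.

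Chemokines are small secreted proteins that guide leukocytes along gradients by binding G protein-coupled receptors on their surface. Cxcl1 draws neutrophils, Cxcl9 and Cxcl10 are interferon-induced ligands that draw activated T cells, and Cxcl13 draws B cells. Cxcr4 is the signalling receptor of Cxcl12, whereas Ackr3 is an atypical receptor that takes up Cxcl12 without classical G protein signalling. Ccl7 and Ccl8 draw monocytes and other leukocytes, and Ccl6 and Ccl9 are mouse CC chemokines made mainly by myeloid cells. Sensory neurons and the satellite glia around them are known to make some of these ligands after injury or inflammation.

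Each cell was placed in 1 of 4 classes by transcripts of genes outside the set. Neurons had 5 or more transcripts of Snap25, Tubb3, Scg2 and Gap43 together (427, 435 and 542 cells in sections 1, 2 and 3, and 1404 in all). Prx cells had 2 or more of Prx, which encodes periaxin of myelinating Schwann cells (804 cells). Vessel cells had 2 or more of Eng, Kdr, Tie1 and Vwf (115 cells), and all other cells formed the rest (7462 cells). A total of 118 of the 9785 cells met more than 1 rule and were counted in the first that they met. The classes were checked against other markers. The 8 further neuron markers were each highest per cell in neurons, among them Prdm12 of jugular neurons. Glial markers summed to 192.4 per 100 Prx cells against 50.4 in the rest, but neurons held 147.8, and only 2 of the 4 glial markers were highest in Prx cells. The 5 endothelial markers were each highest in vessel cells. Vessel cells also had the highest level of all 6 fat markers, summing to 290.4 per 100 cells, so that class was not free of other tissue. Neurons in turn were highest per cell for 7 of 13 macrophage, 4 of 6 T and B cell and 3 of 4 neutrophil markers. The part of transcripts from neighbouring cells in the levels was not tested. The sections held 70313 to 108121 transcripts, and the median cell held 87 transcripts in neurons, 11 in Prx cells, 19 in vessel cells and 7 in the rest.

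The 10 genes gave 953 transcripts, 0.378% of all 252167. They fell in 803 cells, 8.21% of the cells measured. Cxcl1 was counted 55, 62 and 84 times in sections 1, 2 and 3, Cxcr4 53, 53 and 73 times, and Cxcl10 38, 22 and 47 times. Ackr3, Ccl7, Ccl6, Ccl9 and Cxcl9 had 65 to 106 transcripts in all, Ccl8 had 32 and Cxcl13 had 14. Probes differ in number and efficiency, so these totals do not order the genes by expression. Most cells with a transcript of one of these genes had a single one, and 13.5% of the 953 transcripts (95% exact binomial interval 11.4% to 15.9%) lay in cells with 2 or more of the same gene.

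The genes lie in 3 groups in the RefSeq annotation of GRCm38.p6. The 4 CXC ligands are on chromosome 5, among them Cxcl1 at chr5:90891245-90893121 and Cxcl10 at chr5:92346638-92348889. The 4 CC ligands are on chromosome 11, among them Ccl6 at chr11:83587886-83593087 and Ccl9 at chr11:83572917-83578636. The 2 receptors are on chromosome 1. The bases just upstream of Cxcl1 and Cxcl10 are shown because these were the ligands whose counts per cell stood furthest above the rest in neurons. Capitals mark matches to 2 motifs searched on both strands. The first was a kappa B motif, GGGA and TTCC with any 2 bases between them, and the second an interferon-stimulated response element, GAAA and GAAA with any 2 bases between them. Both stretches are from RefSeq (GRCm38.p6), 220 bases each, 5′ to 3′ on the gene's strand and ending at the base before the annotated start. Cxcl1 is read from the plus strand of chr5:90891025-90891244 and Cxcl10 from the minus strand of chr5:92348890-92349109.
Cxcl1: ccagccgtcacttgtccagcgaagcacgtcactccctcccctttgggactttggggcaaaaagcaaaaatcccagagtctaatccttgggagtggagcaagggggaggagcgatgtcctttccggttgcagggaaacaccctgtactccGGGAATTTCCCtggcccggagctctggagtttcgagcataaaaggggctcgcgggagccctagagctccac
Cxcl10: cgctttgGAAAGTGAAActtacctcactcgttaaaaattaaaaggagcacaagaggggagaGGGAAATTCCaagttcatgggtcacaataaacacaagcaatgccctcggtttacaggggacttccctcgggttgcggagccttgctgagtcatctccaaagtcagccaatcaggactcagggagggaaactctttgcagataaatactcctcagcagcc
The kappa B match began 71 bases before the start of Cxcl1, where it overlapped its own match on the other strand, and 159 bases before the start of Cxcl10. The interferon motif began 213 bases before the start of Cxcl10. In windows of 250 bases upstream of all 32851 annotated starts, 1.21% held the kappa B motif and 2.98% the interferon motif. Neither motif was in the windows of the other 7 genes with an entry in that table. These are matches of letters only.

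The CXC ligands were read first. Neurons held 34, 39 and 50 Cxcl1 transcripts in the 3 sections, which is 7.96, 8.97 and 9.23 per 100 cells. The rest held 20, 16 and 28, or 0.795, 0.792 and 0.957 per 100 cells. Per cell the level in neurons was 10.2 times that in the rest, with no overlap between the groups. Prx cells had 0.426, 3.07 and 1.76 Cxcl1 transcripts per 100 cells, a spread wide enough to take in the rest. No Cxcl1 transcript was seen in the 115 vessel cells, which allows up to 2.61 per 100 cells. Cxcl10 had 5.39, 3.22 and 4.80 transcripts per 100 neurons against 0.556, 0.347 and 0.547 in the rest, a ratio of 9.05 without overlap. Cxcl9 differed less, with 0.703, 1.15 and 1.48 per 100 neurons against 0.596, 0.545 and 0.615 in the rest. Cxcl13 was at the limit of detection, with 4, 2 and 1 transcripts in neurons and 2 in the rest of each section.

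The receptors differed from each other. Cxcr4 had 9.37, 7.59 and 9.96 transcripts per 100 neurons, from counts of 40, 33 and 54. In the rest it had 0.477, 0.941 and 0.410 per 100 cells, so the level in neurons was 15.7 times as high. Of all Cxcr4 transcripts, 70.9% lay in neurons, which made up 14.3% of the cells but held 66.8% of the transcripts of all panel genes. Ackr3 had 1.41, 1.84 and 3.88 per 100 neurons against 0.993, 0.594 and 0.923 in the rest. Its level in Prx cells was 0.851, 0.877 and 0.880, from 7 transcripts in all. These levels were at or under that of 3 counts in each section (1.28, 1.32 and 0.880). The highest neuronal value of Ackr3, in section 3, stood well above the other 2, whereas Cxcr4 varied little between sections.

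Among the CC ligands, Ccl6, Ccl7 and Ccl8 showed the smallest ratios per cell of the 10 genes between neurons and the rest. Ccl6 had 0.703, 1.15 and 0.923 transcripts per 100 neurons and 0.516, 1.29 and 0.752 in the rest. Ccl7 had 1.41, 2.07 and 0.554 per 100 neurons and 0.715, 0.941 and 1.16 in the rest. Ccl8 had 0, 0.460 and 0.554 against 0.199, 0.248 and 0.478. For these 3 genes the order of the classes turned in 1 of the 3 sections. Ccl9 was higher per cell in neurons in each section, at 1.41, 1.38 and 1.48 per 100 neurons against 0.358, 0.743 and 0.547 in the rest. In all, 7 of the 10 genes were higher per cell in neurons in 3 of 3 sections, as were 282 of the 430 panel genes with 10 or more transcripts and 9 of 25 panel genes of other organs. Panel genes without overlap between neurons and the rest were not counted.

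**Figure D1:**
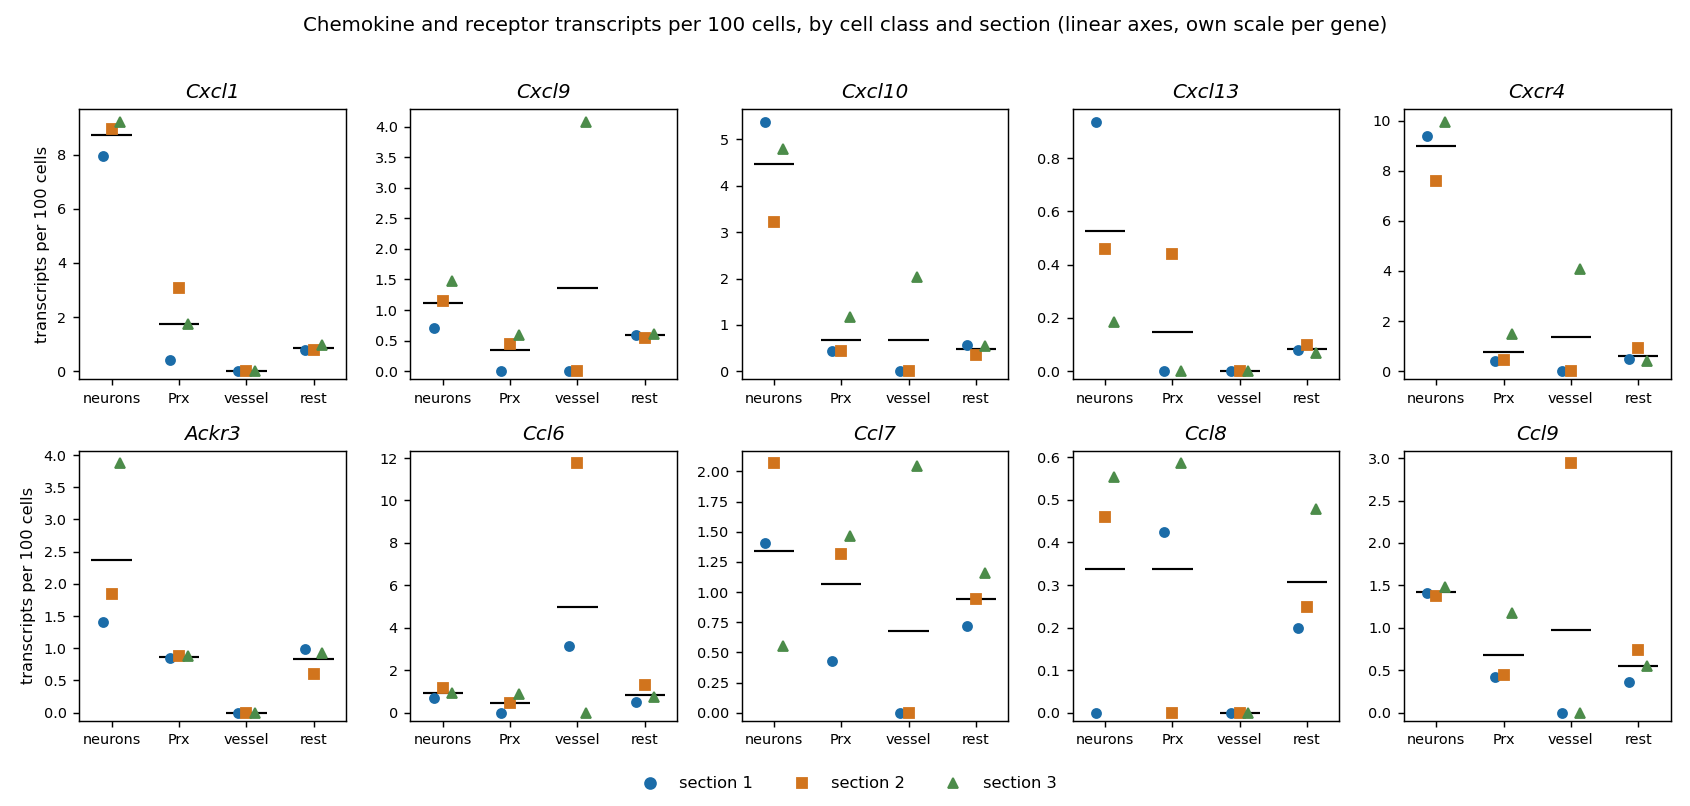
Transcripts per 100 cells (y axis, linear, with a scale of its own for each gene) of the 10 genes in neurons, Prx cells, vessel cells and the rest (x axis), 1 point a section and a bar at the mean of the 3. Cxcl1, Cxcl10 and Cxcr4 stand in neurons between 3.22 and 9.96 per 100 cells and clear of the rest, whereas Ccl6, Ccl7 and Ccl8 overlap, and the points of vessel cells rest on 0 to 4 transcripts each.

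Neurons yielded far more transcripts of every kind, however. They held 119.9 transcripts per cell against 9.56 in the rest, a ratio of 12.5, and among all panel genes with 10 or more transcripts the median ratio per cell was 3.41. Panel genes of other organs (skin, liver, kidney, eye and the like), taken as a measure of unspecific signal, had a median ratio of 1.77 over 25 genes, against 2.78 over the 10 genes described here. Negative control probes and codewords together gave 2.07 events per 100 neurons and 0.858 per 100 cells of the rest. This is a total over all controls, whereas the levels above are per gene, so it is no floor for a single gene. In neurons Cxcl1 and Cxcr4 exceeded 35 of the 36 other-organ genes, but Sbsn, a skin gene, reached 9.26 per 100 neurons, above both. Cxcl13 and Ccl8 in neurons exceeded 21 and 20 of the 36. The part of unspecific signal in the levels was not tested further.

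Expressed per transcript counted, as counts scaled to a total of 1000000 per class sum (CPM), the order of the classes changed. The CPM of Cxcl1 was 743, 773 and 693 in neurons and 934, 810 and 928 in the rest, so that on this scale neurons were lower in 3 of 3 sections. Cxcr4 had 874, 654 and 748 CPM in neurons and 560, 962 and 398 in the rest, which overlapped. Only Cxcr4 had a ratio of neurons to the rest above 1 per transcript when the sections were summed, at 1.25. The ratio was 0.814 for Cxcl1 and 0.722 for Cxcl10, and between 0.0883 (Ccl8) and 0.494 (Cxcl13) for the other 7. Cell areas were not used here, so a larger cell and a higher concentration of transcripts cannot be told apart.

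**Figure D2:**
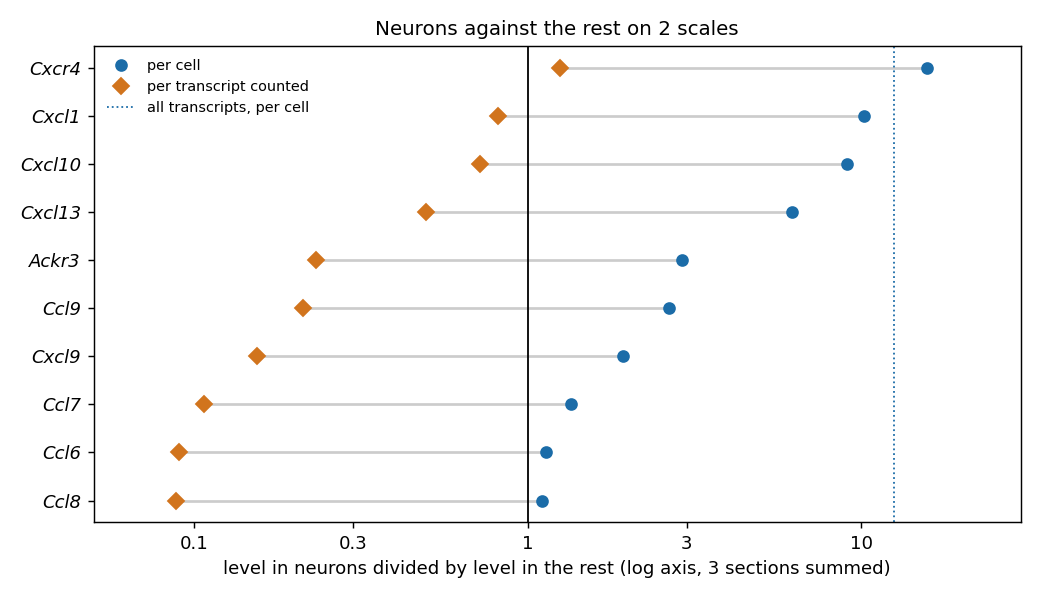
The level of each gene in neurons divided by that in the rest (x axis, log scale), per cell (circles) and per transcript counted (diamonds), with the 3 sections summed. All 10 circles lie above 1 and only the diamond of Cxcr4 does, and the dotted line at 12.5 is the ratio for all transcripts together.

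The counts were then summed per section and class and compared with edgeR. Its TMM factors are meant to correct for a difference in composition, but they assume that most genes do not differ. In neurons against the rest 183 of the 211 genes tested were called, so that assumption is in doubt here. Of the 10 genes 4 had enough counts to be tested among 211 panel genes. In neurons against the rest, Cxcr4 was higher by 1.33 ± 0.31 on the log2 scale (SE, edgeR adjusted p = 3.58e-05) and Cxcl1 by 0.74 ± 0.29 (edgeR adjusted p = 0.0141). Ccl6 was lower, at -2.40 ± 0.47 (edgeR adjusted p = 7.29e-07), as was Ccl7, at -2.12 ± 0.42 (edgeR adjusted p = 1.02e-06). These 2 higher and 2 lower calls stand beside 40.3% and 46.4% of all genes tested called higher and lower, so that calls were common in either direction. Ccl6, Ccl7 and also Cxcl1 passed the filter on low counts through classes other than neurons. The mean CPM of Ccl6 and Ccl7 was 78.0 and 117 in neurons against 884 and 976 in the rest. That of Cxcl1 was 736 in neurons against 890.5 in the rest. Nothing is therefore read from the count of calls in either direction. With no filter on low counts all 10 genes were tested. Cxcl1, Cxcl10 and Cxcr4 were then higher, where 26.9% of 469 genes were, and Cxcl9, Ccl6, Ccl7 and Ccl8 were lower, where 32.6% were.

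The direction of these differences depended on the scaling. The median log2 difference of all genes tested was -1.24 with library size alone, -0.21 with TMM and 2.38 with the number of cells as the offset. Cxcl1 turned from 0.74 to -0.29 with library size alone (edgeR adjusted p = 0.341), the direction of the plain CPM. It was 3.33 with the number of cells (edgeR adjusted p = 8.85e-29). Cxcr4 stayed above 0, at 0.31 and 3.92, but was not called with library size alone (edgeR adjusted p = 0.352). Ccl6 and Ccl7 turned to 0.13 and 0.42 with the number of cells and were not called (edgeR adjusted p = 0.814 and 0.401). Set against the median gene of the same fit, the TMM values were 0.95 for Cxcl1, 1.54 for Cxcr4, -2.19 for Ccl6 and -1.92 for Ccl7. Of the 15 alternatives run, each gene passed the filter in 11 to 13. Cxcl1 and Cxcr4 had no value in cells with 10 or more transcripts or against the rest without neuron-gene transcripts, and Cxcr4 none without section 3. Ccl6 had none without section 2 or with doubled class thresholds, and Ccl7 none in cells with 10 or more transcripts. In the others, the relative values stayed above 0 for Cxcl1 (0.83 to 1.72) and Cxcr4 (0.97 to 2.31), and below 0 for Ccl6 (-2.48 to -1.48) and Ccl7 (-2.16 to -1.18). The call of Cxcl1 was also lost without section 3 (0.77, edgeR adjusted p = 0.0814), and neither Cxcl1 nor Cxcr4 was called by DESeq2 (adjusted p = 0.410 and 0.0935) or with doubled class thresholds (edgeR adjusted p = 0.141 and 0.0684). None of the 4 was called by limma on log2(CPM + 50), where the adjusted p ran from 0.0559 for Ccl7 to 0.819 for Cxcr4.

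**Figure D3:**
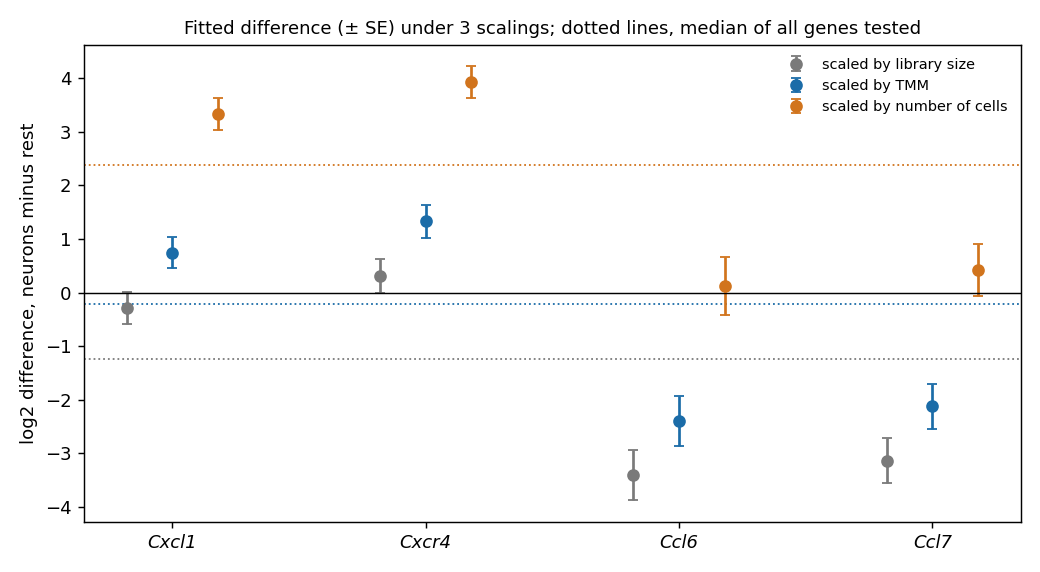
Fitted log2 difference of neurons minus the rest (y axis) with its SE for the 4 genes tested (x axis), scaled by library size, by TMM or by the number of cells. The dotted lines mark the median of the 211 genes under each scaling, at -1.24, -0.21 and 2.38, and under each of them Cxcl1 and Cxcr4 lie above the median gene and Ccl6 and Ccl7 below it.

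A test per cell over all 10 genes was added after the data were seen, with the number of cells as the offset and no filter. It called 6 of the 10 higher in neurons (Cxcl1, Cxcl10, Cxcl13, Cxcr4, Ackr3 and Ccl9) and none lower, beside 55.4% of 469 genes called higher. At an unadjusted p under 0.05 it called 6 as well. Among cells with 10 or more transcripts the contrast per cell narrowed. The rest of these cells (2512) had a mean of 19.4 transcripts, and only Cxcl1, Cxcl10 and Cxcr4 were higher per cell in neurons in all 3 sections, in place of 7 genes. No share of all panel genes is given for these cells, so nothing is read from this count about the 10 genes. There Cxcl1 had 1.25, 1.55 and 1.38 transcripts per 100 cells of the rest and Cxcr4 1.25, 2.12 and 0.922, against unchanged levels in neurons, and Ccl6 was lower in neurons in 3 of 3 sections.

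Within neurons the genes also moved with the number of transcripts in a cell. Neurons were split at the median of their section into a group with fewer and a group with more, with medians of 54 and 153 transcripts. Cxcl1 had 4.53 transcripts per 100 neurons in the former and 13.04 in the latter, near to the difference in depth, as its CPM was 837 and 699. Cxcr4 changed less, from 7.51 to 10.6 per 100 neurons, and its CPM was 1386 in the former and 569 in the latter. Cxcl10 went from 3.54 to 5.44 per 100 neurons, with CPM of 654 and 292. These values are descriptions over cells of the same 3 sections.

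**Figure D4:**
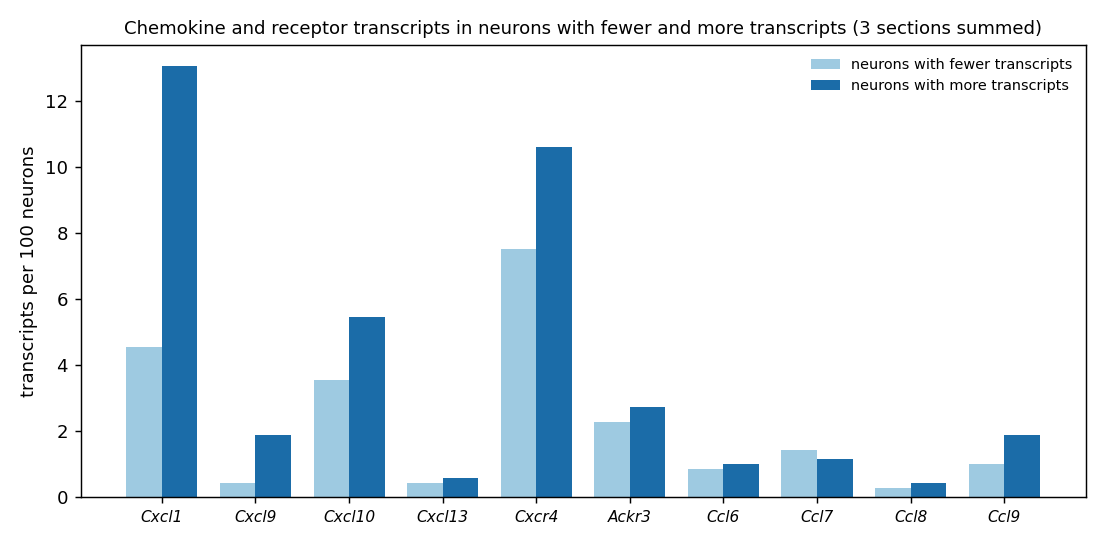
Transcripts per 100 neurons (y axis, from 0) of the 10 genes (x axis) in neurons with fewer (light bars) and more (dark bars) transcripts than the median of their section, with the 3 sections summed and no error drawn. Cxcl1 goes from 4.53 to 13.04 and Cxcr4 from 7.51 to 10.6, and Ccl7 alone is lower where there are more transcripts, at 1.15 against 1.42.

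Some cells, of any class, held several transcripts of the same gene. Of 157 cells with Cxcr4, 20 had 2 or more, up to 4 in a cell, and these cells held 23.5% of its transcripts. Cxcl10 was similar, with 11 of 93 cells and 23.4% of its transcripts, whereas Cxcl1 had 9 of 190 cells and 9.95%. No cell had more than 1 transcript of Cxcl9 or of Cxcl13. Cxcl10 and Cxcr4 were found together in 10 cells, 9 of them neurons. Cxcl1 shared 7 cells with Cxcl10 and 7 with Cxcr4, 6 of each being neurons. Over the 12 sums of 4 classes in 3 sections, Cxcl10 and Cxcr4 were also among each other's 3 most alike genes of 216 panel genes (Pearson r = 0.94 of log2(CPM + 50)). The other genes most like Cxcl10 were Gamt and C1ql4, and those most like Cxcr4 were C5ar1 and Gamt. Cxcl1 was most like Mrgpra2b, Pnmal2 and Trpm3 (r = 0.94 to 0.95), and Ackr3 was most like S100a4, Htra3 and Mfap5 (r = 0.95 to 0.96). Cxcl9 was most like Pi16, Mpeg1 and Trpm7 (r = 0.85 to 0.99), Ccl7 most like Cldn11, Tnfrsf13c and Mrgpra3 (r = 0.91 to 0.93), Ccl9 most like Cybb, Lpar1 and Mamdc2 (r = 0.88 to 0.95) and Ccl6 most like Dpt, Cd38 and Mfap4 (r = 0.71 to 0.87). These sums share sections and depth, vessel sums rest on few counts, and the correlations are descriptions only.

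Neurons were split by Prdm12, a transcription factor of jugular neurons, which derive from the neural crest. The split took 1 or more transcripts of this gene alone, so neurons with a count of 0 may include jugular neurons. The 131 neurons with a Prdm12 transcript held 6, 6 and 7 Cxcl1 transcripts, or 17.1, 13.6 and 13.5 per 100 cells. The other 1273 neurons had 7.14, 8.44 and 8.78 per 100 cells, so the groups did not overlap. On the CPM scale they did not overlap either, with 2250, 1126 and 1320 against 650, 732 and 643. How many other genes also did not overlap in this split was not counted, so nothing is read from the lack of overlap. The edgeR difference of 1.19 ± 0.44 on the log2 scale did not pass the adjustment (adjusted p = 0.0654). Without the section block it did (1.17, edgeR adjusted p = 0.0241), and over the other alternatives the adjusted p ran from 0.0531 to 0.417. Keeping only cells with 10 or more transcripts left this fit unchanged, as all 1404 neurons had as many. Cxcr4 had 5.71, 4.55 and 7.69 per 100 Prdm12 neurons against 9.69, 7.93 and 10.2, a log2 difference of -0.24 ± 0.52 (edgeR adjusted p = 0.714). Cxcl10 had 1, 0 and 4 transcripts in Prdm12 neurons and was not tested in this fit. Of the genes described here 0 of 2 were thus called, 1 at an unadjusted p under 0.05, and DESeq2 and limma called 0 as well, beside 41.4% of the 157 genes tested in this split.

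Prx cells and vessel cells gave no call against the rest. In Prx cells 0 of 4 genes passed, beside 27.5% of all genes tested, and 1 had an unadjusted p under 0.05. This was Cxcl1, at 1.25 ± 0.54 on the log2 scale (edgeR adjusted p = 0.0651), which DESeq2 called (1.55, adjusted p = 0.0317) and limma did not. In vessel cells 0 of 4 passed with edgeR, beside 19% of all genes in that fit. DESeq2 called none of them either, but it gave no adjusted p for Ccl7 and Cxcr4. The gene with an unadjusted edgeR p under 0.05 there was again Cxcl1, which had no count there and which limma called lower (adjusted p = 0.00109). Vessel cells held 12 transcripts of the 10 genes in all, of which 5 were Ccl6, so modest differences were not detectable at this depth. Neurons against Prx cells gave 1 call of 4, Ccl7, which was lower in neurons at -2.59 ± 0.78 (edgeR adjusted p = 0.00179), where 28.9% of all genes were called lower. As Ccl7 passed the filter through classes other than neurons, nothing is read from that count. With no filter Ccl7 was at -1.84 (edgeR adjusted p = 0.0298). The call of Ccl7 in the filtered fit was lost without section 3 (-1.83, edgeR adjusted p = 0.154), with doubled thresholds (-2.12, edgeR adjusted p = 0.246) and in limma (adjusted p = 0.105), and with the number of cells as the offset the value turned to 0.21 (edgeR adjusted p = 0.785). That offset called Cxcl1 (2.33, edgeR adjusted p = 4.00e-08) and Cxcr4 (3.36, edgeR adjusted p = 8.47e-12) higher in neurons. DESeq2 called Ccl7 and also Ccl6 lower (-2.58, adjusted p = 0.0108). Per cell with no filter, in the test added after the data were seen, Cxcl1, Cxcl10, Cxcr4 and Ackr3 were higher in neurons than in Prx cells, beside 47.8% of genes.

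The rest was not of one kind, and Ccl6 and Ccl9 had higher levels in a small group within it, though most of their transcripts lay elsewhere. Cells of the rest with 2 or more transcripts of 13 macrophage genes (Ctss, Laptm5, Mpeg1, F13a1 and others) numbered 39, 45 and 58 in the 3 sections. They had 6, 13 and 5 Ccl6 transcripts, which is 15.4, 28.9 and 8.62 per 100 cells. The remaining 7320 cells of the rest had 0.282, 0.659 and 0.593 per 100 cells, far below the lowest of the former. Ccl9 had 2.56, 13.3 and 3.45 per 100 macrophage-gene cells against 0.323, 0.456 and 0.488, without overlap. Ccl7 had 5.13, 4.44 and 5.17 against 0.646, 0.861 and 1.08, also without overlap, from 2, 2 and 3 transcripts. The number of other panel genes without overlap between these groups was not counted. Ccl8 had 1, 0 and 2 transcripts in these cells. The group held 28.9% of all Ccl6 and 13.4% of all Ccl9 transcripts, and the remaining rest held 37 Ccl6 and 31 Ccl9 transcripts against 24 and 9 here.

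Ccl6 was higher in macrophage-gene cells by 4.00 ± 0.56 on the log2 scale (edgeR adjusted p = 1.40e-10) and Ccl9 by 2.84 ± 0.64 (edgeR adjusted p = 0.000138). Ccl7, at 1.49 ± 0.76, did not pass (edgeR adjusted p = 0.145), though it did with the number of cells as the offset (2.46, edgeR adjusted p = 0.01998). These 3 genes passed the filter on low counts through the macrophage-gene cells, where they were high, so nothing is read from the count of 2 calls beside 12.4% of the 177 genes in this fit. With no filter all 10 genes were tested, and Ccl6 (3.56, edgeR adjusted p = 2.69e-07) and Ccl9 (2.41, edgeR adjusted p = 0.0437) were called higher, beside 3.43% of 467 genes. Per cell with no filter, the test added later, the same 2 of 10 were called beside 5.78% of genes. Ccl6 was called in each of the 14 alternatives, with adjusted p from 9.67e-14 to 0.0246. Leaving out cells that meet several class rules could change nothing here, as cells of the rest meet none. Ccl9 was not called without section 2 (1.72, edgeR adjusted p = 0.354) or without section 3 (3.25, edgeR adjusted p = 0.0683), nor by limma (adjusted p = 0.212). Macrophage-gene cells also differed in other markers. Their median was 12.5 transcripts against 6 in the remaining rest, and fibroblast markers summed to 86.7 to 93.1 per 100 cells against 40.5 to 49.5, with all 12 detected in both. The 4 neutrophil markers summed to 2.56 to 15.5 per 100 cells against 0.565 to 1.67, without overlap, with 3 of the 4 detected. The 3 lymphatic markers summed to 2.22 to 10.3 against 1.86 to 2.94, which overlapped. The part of depth and of these other transcripts in the result was not tested. None of the 142 macrophage-gene cells had a Cxcl1, Cxcl9 or Cxcl13 transcript, which allows up to 2.11 per 100 cells for each gene.

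**Figure D5:**
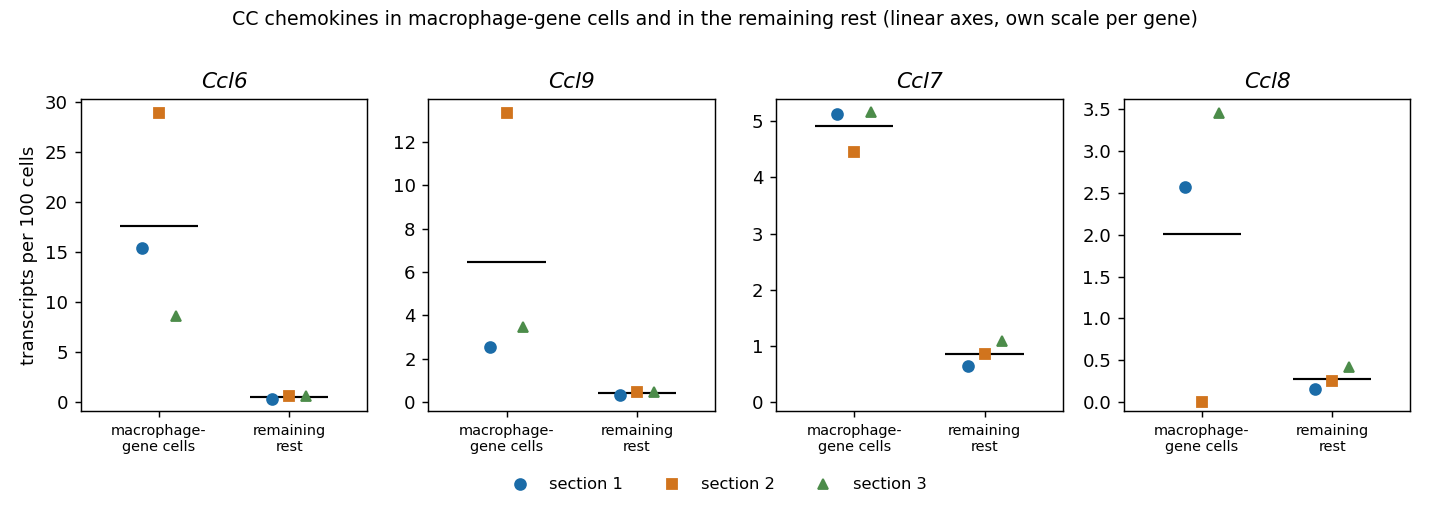
Transcripts per 100 cells (y axis, linear, with a scale of its own for each gene) of Ccl6, Ccl9, Ccl7 and Ccl8 in macrophage-gene cells and in the remaining rest (x axis), 1 point a section and a bar at the mean. Ccl6 lies at 8.62 to 28.9 per 100 macrophage-gene cells and at 0.282 to 0.659 in the remaining rest, and section 2 gives the highest points of Ccl6 and Ccl9.

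A few cells carried much of the Ccl6 signal. Of 67 cells with Ccl6, 7 had 2 or more, and these held 23 of its 83 transcripts. The highest, a cell of section 2 with 40 transcripts, had 8 Ccl6, 2 Ccl9 and 9 transcripts of the macrophage genes Ctss and Mpeg1. Without this cell section 2 had 11.4 Ccl6 and 9.09 Ccl9 transcripts per 100 macrophage-gene cells, and the 3 sections still lay above the remaining rest. The next highest, a cell of section 3, had 5 Ccl6 and also Ccl9 but none of the macrophage genes among its 14 transcripts. Of the 7 cells 5 had a transcript of the macrophage list and 4 were among the macrophage-gene cells. Ccl6 shared 4 cells with Ccl7 and 4 with Ccl9, and none of these cells was a neuron.

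The panel held 9 more genes of the family, which were Ccl3, Ccl4, Ccl5, Ccl12, Cxcl5, Cxcr2, Cxcr6, Pf4 and Ppbp. They gave 372 transcripts in all, and Ccl4 gave 3 of these. With no filter on low counts, 0 of the 9 were called higher in neurons than in the rest and 4 were called lower (Ccl5, Ccl12, Pf4 and Ppbp), where 26.9% and 32.6% of all genes were. Per cell, in the test added after the data were seen, Ccl3, Cxcl5 and Cxcr6 were called higher and none lower, where 55.4% of all genes were called higher. Cxcr6, a receptor of T cells, had 2.07 transcripts per 100 neurons against 0.375 in the rest, and Ccl3 had 1.496 against 0.322. Cxcl5, a ligand for neutrophils like Cxcl1, had 1.28 against 0.348. Ccl5, Ccl12 and Cxcr2 had 0.285 to 0.427 per 100 neurons and 0.228 to 0.308 in the rest, and Pf4, a platelet and macrophage chemokine, had 1.07 and 0.603.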

How the data were processed

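Xenium is an imaging assay in which padlock probes read transcripts in place. The authors decoded the probe signals, assigned them to segmented cells and deposited whole-number counts of transcripts per gene and cell, with no normalization. The submitters' processing notes name Seurat. Sums per cell equalled the deposited totals, and 0 columns of cells were unmapped. Depth was as given above, intervals and limits cover counting error only, and no doublet caller was run.

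The 10 genes, the class rules and all lists were chosen with earlier results of these data known. All 10 genes are named. Other family genes with 20 or more transcripts have values, and for each gene with 50 or more the 3 panel genes (100 or more transcripts) most alike are named. CPM is a count scaled to the total of its class sum (counts per 1000000). A limit for a count of 0 is 3 counts.

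Counts were summed per section and class (12 sums, or 6 for each split) and fitted in edgeR 4.0.16 (R 4.3.3) with filterByExpr, TMM factors, the quasi-likelihood test and the section as a block. Adjusted p-values (Benjamini-Hochberg, threshold 0.05) cover all genes tested. The fit was tested on simulated data in which most genes did not differ, so that test does not cover the doubt about TMM stated above. Alternatives were DESeq2 1.42.0, limma 3.58.1 on log2(CPM + 50), library size alone, the number of cells as the offset, no filter, no block, each section left out, only cells with 10 or more transcripts, cells meeting several rules left out, and stricter thresholds. The combined settings with the number of cells as the offset and the rest without neuron genes were chosen after seeing the data. Other values came from Python 3.11.15 with numpy 2.4.6, pandas 2.3.3, scipy 1.17.1 and matplotlib 3.10.9.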

Additional observations from a re-analysis of the deposited data

How the results depend on the processing

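The count of genes called among all tested stayed within 1.5 times the edgeR count in most alternatives, and the exceptions were as follows. With no filter 279 genes (main 183) were called for neurons against the rest and 69 (main 40) for vessel cells. limma called 94 and, in the same order, 38 for Prx cells (main 58), 67 for neurons against Prx cells (main 134) and 21 for macrophage-gene cells (main 40). Library size alone gave 88 for Prx cells, and the number of cells as the offset gave 64 for vessel cells. With that offset and no filter, added after seeing the data, 281 genes were called for neurons against the rest and 228 against Prx cells. With that offset and only cells with 10 or more transcripts, 90 were called for Prx cells, 23 for vessel cells and 25 for macrophage-gene cells. Leaving out each section in turn gave 37 to 47 for Prx cells, 26 to 29 for vessel cells, 19 to 51 for Prdm12 neurons (main 65) and 24 to 38 for macrophage-gene cells.

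Of the 10 genes, Cxcl1 in neurons against the rest turned to -0.29 with library size alone and -0.26 with limma. With the number of cells as the offset, with or without the filter, Ccl6 and Ccl7 turned to 0.13 and 0.42 there. In neurons against Prx cells Cxcl1 turned to 2.33 and Ccl7 to 0.21. In cells with 10 or more transcripts, 3 and not 7 genes were higher per cell in neurons in all sections, a count given without the share of all panel genes. There 16.3% of the transcripts lay in cells with 2 or more of the same gene. The offset sets cells of unequal depth side by side, and otherwise the cause was not tested. Without the section block 182 genes were called for neurons against the rest, and the call of Cxcl1 in Prdm12 neurons was gained. The share of higher among all calls for neurons against the rest was 46.4% with TMM, 31.3% with library size alone and 88.3% with the number of cells. Counts of 0 to 54 transcripts a sum, and 3 sections, limit all values of the 10 genes.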

Other observations

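Ppbp, the platelet chemokine, was the family gene outside the 10 with the most uneven spread over cells, and it was singled out after its values were seen. It had 16, 27 and 24 transcripts in the 3 sections, in 47 cells, with up to 5 in a cell, and 40.3% of them lay in 7 cells with 2 or more. Only 7.46% of its transcripts lay in neurons, and it had 0.356 per 100 neurons against 0.777 per 100 cells of the rest. Vessel cells held 5.97% of its transcripts, 1.18% of all cells and 0.972% of all transcripts. Ppbp was not called in vessel cells against the rest (0.65 ± 0.95 on the log2 scale, edgeR adjusted p = 0.722). Pf4, which platelets also carry, had 4 cells with 2 or more and 12.1% of its 66 transcripts in them. Cxcr2, the receptor of Cxcl1, gave 1, 6 and 15 transcripts in the sections, with 4 in all neurons.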
